A study of Mus musculus with 12 samples.

Results

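The subunits of the respiratory chain and of ATP synthase were followed over 3 culture media in cultured mouse aortic smooth muscle, the cell type that contracts arteries. Members were taken by symbol: genes of the Nduf, Sdh, Uqcr, Cox and Atp5 families and the protein genes of the mitochondrial genome. The symbols matched 110 of 55822 rows of the count table. Of these, 3 with symbols ending in -ps and 14 with under 100 counts over all 12 libraries were left out. This left 93 members, 80 encoded in the nucleus and 13 in the mitochondrial genome, and all 93 passed the filter on low counts. Just inside the limit of 100 counts stood Cox4i2 with 517 and Ndufa4l2 with 761 summed counts, and just outside it stood Cox7a1 with 94. The nuclear members comprised 36 subunits of complex I, 4 of complex II, 8 of complex III, 15 of complex IV and 17 of complex V, and the mitochondrial members 7 of complex I, 1 of complex III, 3 of complex IV and 2 of complex V. The annotation lists 92 of the 93 as protein coding and Ndufb4c as a processed pseudogene.

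RNA was sequenced in 12 libraries, 4 per medium. Cells labelled naïve BMDM-CM, here naïve CM, received conditioned medium of unstimulated bone marrow-derived macrophages. Cells labelled IFNγ/LPS BMDM-CM, here IFNγ/LPS CM, received medium of macrophages that had been primed overnight with 20 ng/mL interferon gamma (IFNγ), stimulated for 4 hours with 100 ng/mL lipopolysaccharide (LPS), and washed before the medium was collected. Both conditioned media contained 0.3% serum and 10 ng/mL M-CSF, the growth factor that keeps macrophages alive, so both conditioned-medium groups carry it. Smooth muscle cells were starved for 48 hours in 0.3% serum and then exposed to conditioned medium for 24 hours. The last group was labelled regular growth medium, and neither its composition nor whether its cells were starved is given in the sources used here, so serum, M-CSF and macrophage products cannot be told apart in a comparison with it. The titles number 4 biological replicates per medium without naming separate animals or cultures, so a p-value weighs only the spread among these libraries, which may be technical.

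Oxidative phosphorylation passes electrons from NADH through complex I, or from succinate through complex II, to ubiquinone, then through complex III and cytochrome c to complex IV, which reduces oxygen. Complexes I, III and IV pump protons, and complex V, the ATP synthase, makes ATP from the gradient. All but complex II combine subunits made from both genomes, so their assembly needs products of nuclear and mitochondrial genes. Vascular smooth muscle makes a good part of its ATP by glycolysis even when oxygen is plentiful, and complex IV exchanges some nuclear subunits for paralogs in other tissues or under low oxygen or inflammation.

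The promoters of 4 genes are shown because they show some of the largest changes described below. Ndufa4 encodes a complex IV subunit and AA467197, also called Nmes1, its paralog outside the membership rule. Ndufv3 and Ndufb11 are the nuclear complex I members with the largest rise and the largest fall in IFNγ/LPS CM against naïve CM. Each window runs from 250 bases before to 50 bases after the annotated start, 5′ to 3′ on the gene's strand, from RefSeq on GRCm38.p6. The windows are Ndufa4 at chr6:11907401-11907700 on the minus strand, AA467197 at chr2:122637637-122637936 on the plus strand, Ndufv3 at chr17:31519865-31520164 on the plus strand and Ndufb11 at chrX:20617570-20617869 on the minus strand. Capitals mark matches on either strand to any of 6 motifs.
Ndufa4: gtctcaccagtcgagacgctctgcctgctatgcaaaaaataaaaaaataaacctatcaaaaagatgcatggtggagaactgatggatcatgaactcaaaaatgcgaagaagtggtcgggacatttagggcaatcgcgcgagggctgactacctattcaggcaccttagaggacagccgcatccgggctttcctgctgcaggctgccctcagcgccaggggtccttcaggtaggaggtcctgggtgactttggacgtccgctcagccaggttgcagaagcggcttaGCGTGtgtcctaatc
AA467197: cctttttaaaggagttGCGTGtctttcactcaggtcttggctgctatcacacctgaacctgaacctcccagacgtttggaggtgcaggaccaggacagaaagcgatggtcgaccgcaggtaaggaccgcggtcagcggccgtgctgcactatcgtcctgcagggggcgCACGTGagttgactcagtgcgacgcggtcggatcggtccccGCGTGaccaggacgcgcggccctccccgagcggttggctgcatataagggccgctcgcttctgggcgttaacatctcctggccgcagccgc
Ndufv3: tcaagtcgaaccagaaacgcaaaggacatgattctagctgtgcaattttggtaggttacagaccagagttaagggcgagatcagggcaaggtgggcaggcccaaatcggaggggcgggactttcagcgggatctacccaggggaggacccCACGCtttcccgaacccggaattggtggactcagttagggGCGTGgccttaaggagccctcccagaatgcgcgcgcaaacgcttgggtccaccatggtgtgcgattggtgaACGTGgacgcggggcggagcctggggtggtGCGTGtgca
Ndufb11: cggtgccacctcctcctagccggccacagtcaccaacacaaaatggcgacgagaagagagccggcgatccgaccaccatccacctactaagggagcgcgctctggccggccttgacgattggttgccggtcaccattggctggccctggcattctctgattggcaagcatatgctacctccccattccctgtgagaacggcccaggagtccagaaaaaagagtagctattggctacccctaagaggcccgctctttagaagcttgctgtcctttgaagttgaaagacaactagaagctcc
The motifs were NRF1, GABP (CCGGAAG), YY1 (AAGATGGC), the hypoxia response cores ACGTG and GCGTG, and the interferon response element ISRE. ACGTG matches both strands where it lies in CACGTG, as in AA467197. A window was found for 63 of the 80 nuclear members, and Ndufa4l2 and Cox4i2 had none. NRF1, GABP and YY1 are known regulators of respiratory chain genes. The NRF1 letters occurred in 5 of 63 members (7.94%) against 0.977% of the 27025 promoters in the table, the GABP letters in 15 (23.8% against 9.12%) and the YY1 letters in 8 (12.7% against 2.88%). ACGTG occurred in 14 members (22.2% against 19.7%) and GCGTG in 32 (50.8% against 32.5%). ISRE occurred in 2 members (3.17% against 3.49%). Either hypoxia core was present in 39 of the 63 members (61.9%) against 43.8% of all promoters, that is in 24 of 37 members that fell in IFNγ/LPS CM against naïve CM, in 4 of 5 that rose and in 11 of 21 without a call.

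Library totals ranged from 28097496 to 61493375 estimated counts, and replicates of a medium correlated at 0.9885 to 0.993 over log CPM. CPM is counts per 1000000 of the library total after TMM scaling, whose factors were 0.8335 to 0.8421 in IFNγ/LPS CM and 1.0784 to 1.1076 in the other 8 libraries. Scaling by library totals instead puts the median log2 fold change of all 16140 tested genes at -0.38 in IFNγ/LPS CM against naïve CM, -0.41 against regular medium and -0.02 in naïve CM against regular medium, so changes below are relative to the median gene. The regular medium replicate 4 was high for Ndufc2, Uqcrq and the Atp5g2 row without its copy. These are among 8 outlying values in 189 groups of libraries searched, about the share that chance gives. Summed smooth muscle markers, led by Cald1, were at 1110 to 1230 CPM in regular medium, 704 to 797 CPM in naïve CM and 231 to 251 CPM in IFNγ/LPS CM. In regular medium the sum was mostly Cald1 and Acta2, with means of 808 and 280 CPM. Smtn, Tagln, Myocd and Lmod1 were at 45.7, 31.6, 6.26 and 4.62 CPM. Myh11, Des, Mylk and Cnn1 were near the floor, at 0.716, 0.464, 0.364 and 0.276 CPM. Of these 10 markers 1 was called higher (Mylk at 1.08) and 7 lower in IFNγ/LPS CM against naïve CM. In naïve CM against regular medium 3 were called higher and 4 lower. Adventitial fibroblast markers, led by Dcn, summed to 2140 to 2280 CPM in regular medium, 2240 to 2370 CPM in naïve CM and 7320 to 7870 CPM in IFNγ/LPS CM. Of these 8 markers 3 were called higher and 3 lower in IFNγ/LPS CM against naïve CM (Dcn at 1.55, Dpt at -5.23). Macrophage markers summed to 33.3 to 35.2 CPM in regular medium, 33.1 to 36.5 CPM in naïve CM and 58.5 to 69.6 CPM in IFNγ/LPS CM. Cd14 and Mertk were the most abundant. Of the 10 macrophage markers 5 were tested, and 4 of these were called higher and 1 lower in IFNγ/LPS CM against naïve CM. Csf1r was at 4.4 on the log2 scale, from 44 to 656 summed counts, and Mertk at -0.49. Fcgr1 was at 0 in every library, and Adgre1 at 2 counts in all. The part of these markers in the results below was not tested. In bulk RNA, fewer cells of a type and less RNA per cell cannot be told apart.

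Counts of 7 members must be read together with near-identical copies elsewhere in the genome, over which the authors' counting could split reads. On chromosome 1, from 24611535 to 24616197 on GRCm38, lie annotated pseudogenes of mitochondrial genes. Of the counts of a gene and its copy together, 99.1% stood with the copy for mt-Co2, 81.1% for mt-Atp6, 69.2% for mt-Co3, 42.3% for mt-Nd4l, 38.4% for mt-Nd3 and 5.91% for mt-Co1. In the nucleus the same held for Atp5g2, with 98.1% in its copy Gm10175. Values for these 7 genes are given with the copy added, a choice made after seeing the data, and the row's own values where the call differs. Counts of calls below, and values without a single library, are those of the member rows alone.

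In IFNγ/LPS CM against naïve CM, the nuclear respiratory chain was modestly lower. Of 80 nuclear members 48 fell and 7 rose (edgeR quasi-likelihood test, adjusted p 0.05), while over all 16140 tested genes 35.8% were called lower and 36.1% higher. The median log2 fold change of the nuclear members was -0.20, against 0.0039 for all genes, and 66 of the 80 changed by under 0.5 in either direction. Complex V had 13 of 17 members lower and complex III 7 of 8, neither with a member called higher. Complex I had 21 of 36 lower and 4 higher, complex IV 5 of 15 lower and 2 higher, and complex II 2 of 4 lower and 1 higher. Of all 93 members 60 were called, and 5 of these by at least 2-fold, against 71.9% called and 29.0% called by that much over all genes. Scaling by library totals turns the split of 8 higher and 52 lower into 3 and 83. Libraries of the groups did not overlap for 52 members in the lower direction and 7 in the higher, against 34.6% and 34.9% of all genes.

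**Figure D1:**
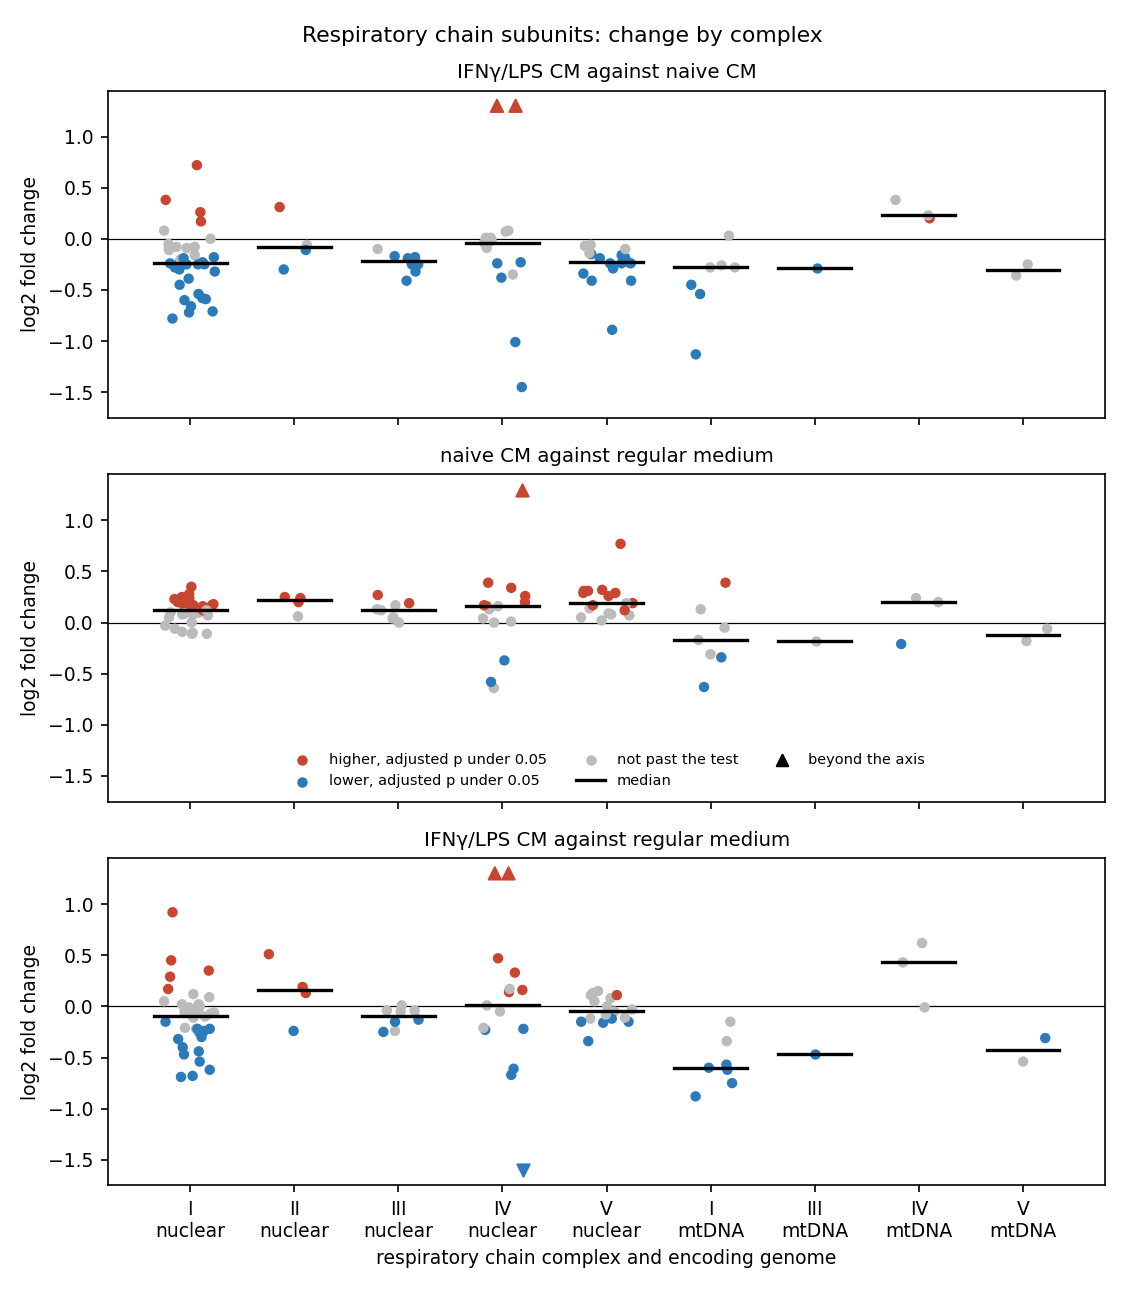
Log2 fold change (vertical axis) of each member row, without copies, by complex and encoding genome (horizontal axis) in the 3 comparisons; 1 point per gene, coloured by call, with the median as a bar and triangles for genes beyond the axis. Most nuclear points lie below 0 in IFNγ/LPS CM against naïve CM and above 0 in naïve CM against regular medium, and the mtDNA points of complex I lie lowest in IFNγ/LPS CM against regular medium, where their median is -0.60. With library totals 3 members rather than 8 are called higher in the first comparison.

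Complex I has a peripheral arm in the matrix, where NADH is oxidised, and a membrane arm that pumps protons. In the peripheral arm Ndufv1, the flavoprotein that binds NADH, was at 84.1, 95.5, 83.6 and 88.6 CPM in naïve CM and at 57.6, 53.4, 49.9 and 54.5 CPM in IFNγ/LPS CM. The groups did not overlap, and the log2 fold change was -0.71 ± 0.054 (SE; adjusted p 5.2e-10). The iron-sulfur and quinone-site core subunits Ndufs8, Ndufs1 and Ndufv2 fell by 0.54, 0.39 and 0.28 on the log2 scale, and Ndufs7 was at -0.10 without a call. Ndufs3, another core subunit, went the other way. It was at 43.5, 47.1, 46.7 and 49.1 CPM in naïve CM and 61.0, 58.5, 61.5 and 61.7 CPM in IFNγ/LPS CM, without overlap, a change of 0.38 ± 0.051 (adjusted p 1.77e-06) that reads -0.01 with library totals.

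Ndufv3, a small accessory subunit bound to the NADH-binding module, rose most. It stood at 62.6, 52.6, 56.3 and 55.2 CPM in regular medium, 67.3, 65.6, 63.0 and 64.2 CPM in naïve CM and 109, 105, 105 and 109 CPM in IFNγ/LPS CM. All IFNγ/LPS CM libraries were above all others, and the rise over naïve CM was 0.72 ± 0.048 (adjusted p 5.97e-11). Its partners in the same module, Ndufv1 and Ndufv2, fell. Of the 16 nuclear peripheral arm members 8 fell and 3 rose, the other riser being Ndufs4 at 0.17 ± 0.045, an accessory subunit whose loss causes a Leigh-like disease in mice, whose change reads -0.22 with library totals.

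In the membrane arm 13 of 20 nuclear members fell and 1 rose, with a median of -0.24. Ndufb11, which carries the largest fall, was at 47.1, 52.4, 50.9 and 51.0 CPM in naïve CM and 29.8, 30.3, 26.4 and 30.7 CPM in IFNγ/LPS CM. The groups were far apart, with a log2 fold change of -0.78 ± 0.065 (adjusted p 2.22e-09). The accessory subunits Ndufb10, Ndufb4 and Ndufb2 fell by 0.72, 0.60 and 0.58, and Ndufa11 by 0.59. Ndufb4c fell by 0.66, and whether its reads and those of Ndufb4 were exchanged in counting was not tested. Ndufc2 alone in this arm rose, by 0.26 ± 0.087 (adjusted p 0.014), which reads -0.13 with library totals. The row Ndufb1-ps, which the rule leaves out for its suffix, had a mean of 54.6 CPM in naïve CM and 77.9 CPM in IFNγ/LPS CM, a change of 0.51 ± 0.062 (adjusted p 6.47e-07).

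**Figure D2:**
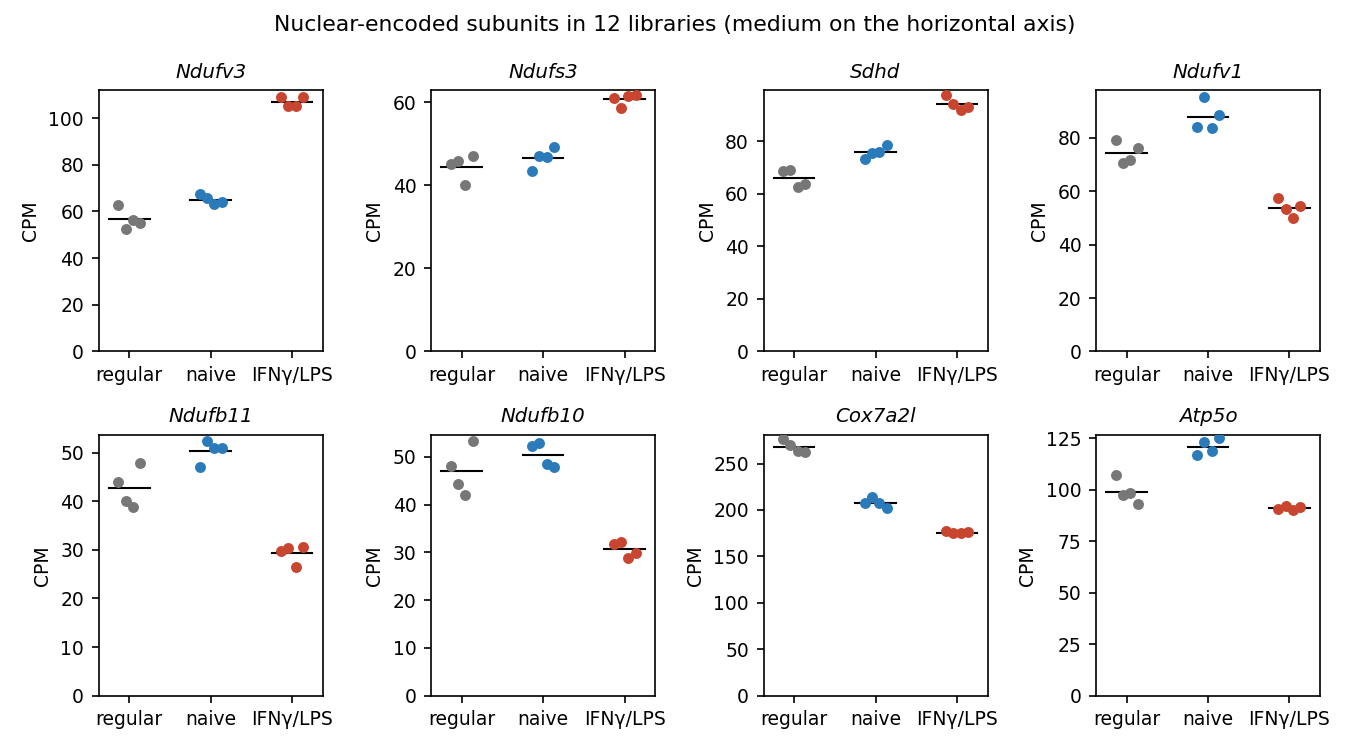
CPM (vertical axis from 0) of 8 nuclear members in the 12 libraries by medium (horizontal axis), 1 point per library with the group mean as a line. The IFNγ/LPS CM points lie above all others for Ndufv3, Ndufs3 and Sdhd, which is lost for Ndufs3 and Sdhd against naïve CM with library totals, and below all others for Ndufv1, Ndufb11, Ndufb10, Cox7a2l and Atp5o.

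Complex II, the succinate dehydrogenase, is built wholly from nuclear genes. Its 4 subunits divided. Sdha, the flavoprotein that oxidises succinate, averaged 246 ± 11.3 CPM (SD, n = 4) in naïve CM and 200 ± 3.87 CPM in IFNγ/LPS CM, a fall of 0.30 ± 0.041 (adjusted p 1.77e-06). Sdhd, one of the membrane anchors, was at 73.1, 75.5, 76.1 and 78.7 CPM in naïve CM and 97.6, 94.2, 92.1 and 93.2 CPM in IFNγ/LPS CM. These groups did not overlap either, and the change was 0.31 ± 0.042 (adjusted p 1.8e-06), or -0.07 with library totals. The iron-sulfur subunit Sdhb was at -0.06 ± 0.048 without a call, and the second anchor Sdhc at -0.11 ± 0.049, a call that rests on an adjusted p of 0.0499. Sdhc lost that call without any one of naïve CM replicates 1, 2 and 4 or IFNγ/LPS CM replicates 2, 3 and 4 (adjusted p 0.0868 to 0.137), and with DESeq2 (0.0533 with its size factors, 0.0632 with its test).

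Complex III passes electrons from ubiquinol to cytochrome c. Uqcrfs1, its Rieske iron-sulfur protein, was at 57.9, 59.3, 59.7 and 59.3 CPM in naïve CM and 47.9, 53.0, 49.3 and 48.3 CPM in IFNγ/LPS CM, a fall of 0.25 ± 0.049 (adjusted p 0.000139). The core proteins Uqcrc1 and Uqcrc2 fell by 0.18 and 0.17, and the small subunit Uqcr11 fell most, by 0.41 ± 0.117 (adjusted p 0.00893). Uqcrq, at -0.10 ± 0.284, was the one nuclear member of the complex without a call. Its regular medium libraries were at 12.2, 11.3, 13.2 and 28.5 CPM, with replicate 4 far above the others.

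Complex IV held both the largest rises and, apart from these, mostly small changes. Cox4i1, the main form of the subunit that regulates the enzyme, averaged 257 ± 11.6 CPM in naïve CM and was at 220, 220, 210 and 225 CPM in IFNγ/LPS CM (-0.23 ± 0.04, adjusted p 4.07e-05). Cox5a fell by 0.38 ± 0.054 (adjusted p 3.12e-06) and Cox7a2l, a paralog known to help join complexes III and IV into supercomplexes, by 0.24 ± 0.034 (adjusted p 2.91e-06). Cox5b, Cox6b1, Cox7a2 and Cox7b were at -0.04, -0.02, 0.07 and 0.08 without a call. Cox6a1 was at -0.35 ± 0.144 (adjusted p 0.0514), and passed the test with DESeq2 size factors, the DESeq2 Wald test, limma-voom, the stricter filter or only the groups compared (adjusted p 7.14e-05 to 0.0493), with library totals (0.000754), and without regular medium replicate 2 (0.0355) or replicate 4 (3.53e-05), which stood above the other regular medium libraries, at 62.9 to 72.0 CPM.

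Ndufa4, first assigned to complex I and now known as a subunit of complex IV, had the largest fall among abundant nuclear members. It averaged 92.0 ± 8.46 CPM in regular medium, and stood at 112, 119, 116 and 119 CPM in naïve CM and 58.3, 58.2, 58.7 and 56.6 CPM in IFNγ/LPS CM. The IFNγ/LPS CM libraries lay close together and below all others, with a log2 fold change against naïve CM of -1.01 ± 0.053 (adjusted p 1.47e-12). Its paralog Nmes1 (AA467197, promoter above), known to replace it in complex IV during inflammation, was at 0.354, 0.291, 0.385 and 0.254 CPM in naïve CM and 513, 478, 509 and 457 CPM in IFNγ/LPS CM. The summed counts were 62 and 69458, a ratio of scaled counts of 1580 (95% interval 1230 to 2060, counting error only), and the edgeR adjusted p was 4.49e-25. Another paralog, Ndufa4l2, known as a hypoxia-induced gene, was at 0.104 to 0.254 CPM in naïve CM and at 6.03, 3.94, 5.24 and 5.10 CPM in IFNγ/LPS CM. Its ratio was 29.1 (20.7 to 42.1), with 722 against 35 counts and an adjusted p of 1.14e-12.

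Per kilobase of exon, which allows levels of different genes to be compared, Ndufa4 was at 186 CPM per kb in naïve CM and 92.9 in IFNγ/LPS CM, Nmes1 at 0.348 and 531, and Ndufa4l2 at 0.186 and 5.43. Of the summed level of the 3 paralogs per kilobase, Nmes1 made up 84.4% in IFNγ/LPS CM (83.8 to 84.8% over 4 libraries), against 0.187% in naïve CM and 0.148% in regular medium. The remainder in IFNγ/LPS CM was 14.8% Ndufa4 and 0.863% Ndufa4l2. These shares are taken within a library and do not depend on the scaling.

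**Figure D3:**
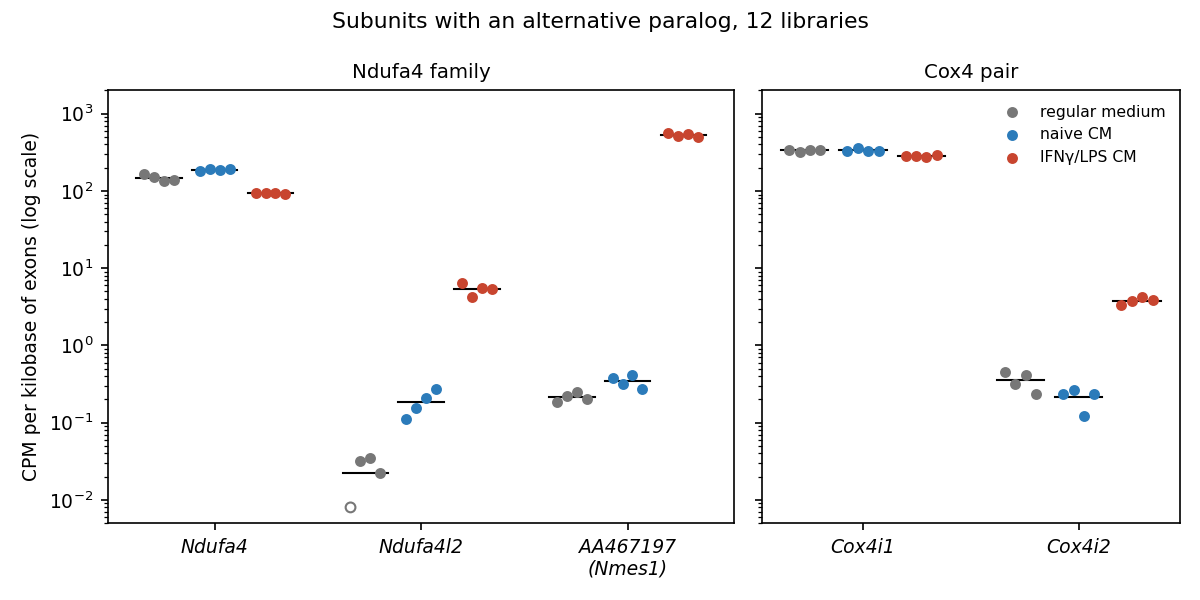
CPM per kilobase of exon (log axis) of the Ndufa4 family and the Cox4 pair, 1 point per library with the group mean as a line, and an open circle for the 1 library at 0. Nmes1 stood at 496 to 557 CPM per kb in IFNγ/LPS CM and 0.186 to 0.418 elsewhere, while Ndufa4 stood at 90.7 to 94.1 against 134 to 191 in the other media.

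Other complex IV paralogs also moved. Cox4i2, the form of lung and of hypoxic cells, was at 0.187, 0.210, 0.0963 and 0.186 CPM in naïve CM and 2.61, 2.98, 3.38 and 3.01 CPM in IFNγ/LPS CM. The ratio was 16.6 (11.8 to 24.1; 424 against 36 counts; adjusted p 7.53e-12). It remained minor, at 1.31% of the 2 Cox4i forms per kilobase in IFNγ/LPS CM and 0.064% in naïve CM. Cox6b2, the form of testis, went down, from 1.58, 1.44, 1.22 and 1.83 CPM in naïve CM to 0.592, 0.434, 0.638 and 0.560 CPM in IFNγ/LPS CM. Its ratio was 0.359 (0.277 to 0.460) with an adjusted p of 7.19e-07, and all groups were apart. The muscle forms Cox6a2 and Cox8b had 14 and 0 counts over all libraries and were left out by the rule.

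Complex V includes the 2 most abundant nuclear members, Atp5b and Atp5a1. Atp5b, the catalytic beta subunit, averaged 746 ± 13.3 CPM in naïve CM and 638 ± 17.8 CPM in IFNγ/LPS CM (-0.23 ± 0.04, adjusted p 4.16e-05). Atp5a1, the alpha subunit, went from 545 ± 12.0 to 461 ± 15.9 CPM (-0.24) and Atp5c1, the central stalk, from 191 ± 4.48 to 172 ± 2.19 CPM (-0.15). Atp5o, of the peripheral stalk, was at 117, 123, 119 and 125 CPM in naïve CM and 90.8, 92.2, 90.2 and 91.6 CPM in IFNγ/LPS CM (-0.41 ± 0.042, adjusted p 5.54e-08). Libraries of these genes did not overlap between the media. Among the 3 genes that encode the same rotor ring subunit c, Atp5g1 fell by 0.29, Atp5g3 by 0.41 and Atp5g2 with its copy by 0.24 ± 0.0497 (adjusted p 0.000253). The Atp5g2 row alone read -0.89 from 583 and 225 counts.

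The 13 mitochondrial genes are transcribed as long precursors and cut apart, 12 from one strand and mt-Nd6 from the other. In the annotation mt-Atp8 overlaps mt-Atp6 by 43 bases, mt-Nd4l overlaps mt-Nd4 by 7, mt-Atp6 meets mt-Co3 in 1 base, and mt-Nd5 overlaps mt-Nd6, on the other strand, by 14, so reads there could be counted for either gene. In IFNγ/LPS CM against naïve CM 5 of the 7 complex I genes, copies included, were called lower, and of the 3 complex IV genes 1 was called higher. Over all genes 35.8% were called lower and 36.1% higher. By the rows alone 3 of the 7 complex I genes were lower (42.9%) and 1 of the 3 complex IV genes higher (33.3%), both near those shares. mt-Nd1, the membrane subunit beside the quinone site, was at 1120, 938, 974 and 897 CPM in naïve CM and 760, 762, 725 and 633 CPM in IFNγ/LPS CM, without overlap (-0.45 ± 0.069, adjusted p 2.32e-05). mt-Nd2 fell by 0.54 ± 0.102, and with copies added mt-Nd3 fell by 0.43 ± 0.0608 (adjusted p 5.62e-06) and mt-Nd4l by 0.45 ± 0.123 (adjusted p 0.00499). The rows of mt-Nd3 and mt-Nd4l alone were each at -0.28 without a call (adjusted p 0.105 and 0.563). mt-Nd5 was at -0.26 and mt-Nd4 at 0.03, both without a call, and the latter changed sign without naïve CM replicate 4 (-0.05) or IFNγ/LPS CM replicate 3 (-0.01).

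mt-Nd6 fell most. It was at 14.3, 11.2, 11.0 and 9.12 CPM in naïve CM and 5.78, 5.06, 4.55 and 5.37 CPM in IFNγ/LPS CM, a change of -1.13 ± 0.117 (adjusted p 4.49e-08) with no overlap. Its transcript is known to carry little poly(A), which the library kit selects, and whether the counting used strand is not given in the sources used here, so reads antisense to it cannot be told apart from its own.

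The mitochondrial subunits of the other complexes differed. mt-Cytb, the cytochrome b of complex III, was at 1040, 859, 965 and 837 CPM in naïve CM and 773, 820, 763 and 676 CPM in IFNγ/LPS CM (-0.29 ± 0.079, adjusted p 0.00462). With its copy, mt-Co2 averaged 2110 ± 173 and 2310 ± 169 CPM (0.13 ± 0.0589, adjusted p 0.0572) and mt-Co3 3620 ± 160 and 3670 ± 193 CPM (0.02 ± 0.0487, adjusted p 0.747). mt-Co1, the catalytic subunit of complex IV and the most abundant of all 93 rows, averaged 6270 ± 706 and 7330 ± 568 CPM with its copy (0.23 ± 0.075, adjusted p 0.0134). The mt-Co1 row alone was at 0.20 (adjusted p 0.0239), with overlapping groups. It lost the call without naïve CM replicate 2 or 4 or IFNγ/LPS CM replicate 2 or 3 (adjusted p 0.0515 to 0.0821) or with only the groups compared (0.0708), and read -0.18 with library totals. mt-Atp6 with its copy fell by 0.19 ± 0.0673 (adjusted p 0.0164), and its row alone was at -0.36 without a call (adjusted p 0.194). mt-Atp8 was at -0.25 without a call, but was called with the DESeq2 Wald test (adjusted p 0.0172) and, at -0.34, without naïve CM replicate 2 (adjusted p 0.0137).

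**Figure D4:**
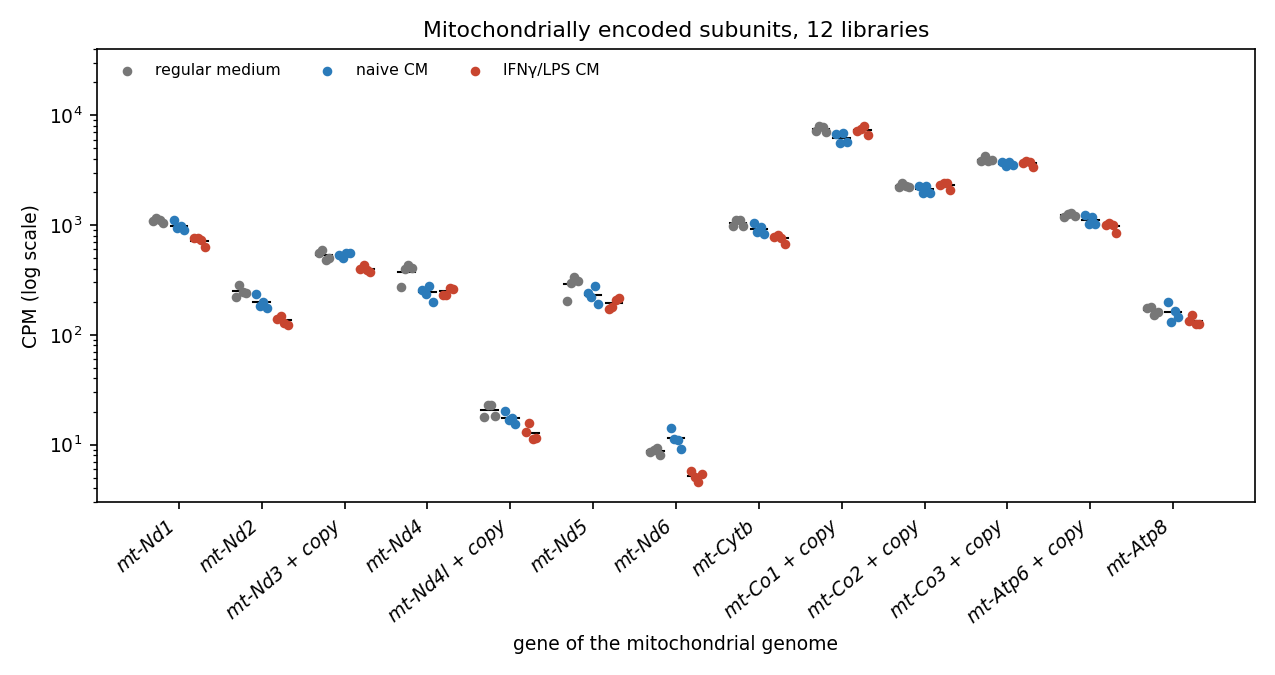
CPM on a log axis of the 13 mitochondrially encoded subunits in the 12 libraries, 1 point per library with the group mean as a bar; copies are added where the axis says so. The IFNγ/LPS CM points lie below the naïve CM points for mt-Nd1, mt-Nd2, mt-Nd3 with its copy and mt-Nd6, and the mt-Co genes of the 2 media overlap.

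Ratios of sums within a library need no scaling between libraries. The mt-Nd genes summed to 0.178 to 0.191 of the mt-Co genes in naïve CM, 0.179 to 0.192 in regular medium and 0.122 to 0.134 in IFNγ/LPS CM, copies included. A share of all counts, in contrast, is scaled by the library total. The rows of the nuclear members, without copies, made up 0.731 to 0.768% of all counts in naïve CM and 0.492 to 0.506% in IFNγ/LPS CM. After TMM scaling these shares were 0.674 to 0.700% and 0.590 to 0.608%, without overlap on either scale. The mitochondrial members with their copies made up 1.67 to 1.92% and 1.30 to 1.48%, but 1.52 to 1.77% and 1.54 to 1.78% after TMM scaling, where the groups overlapped. With copies included, the ratio of nuclear to mitochondrial counts was 0.425 ± 0.0415 in naïve CM, 0.361 ± 0.0238 in IFNγ/LPS CM and 0.336 ± 0.0269 in regular medium. The first 2 ranges overlapped, at 0.389 to 0.469 and 0.337 to 0.391. For complex I alone the mitochondrial over nuclear ratio was 1.20 ± 0.101 and 1.04 ± 0.0475, and for complex IV 8.35 ± 0.793 and 10.3 ± 0.715. Against naïve CM, complex I was lower and complex IV higher by this ratio in IFNγ/LPS CM, in both cases without overlap. In regular medium the ratios were 1.52 ± 0.152 for complex I and 9.89 ± 0.818 for complex IV. The complex IV ratio of IFNγ/LPS CM (9.54 to 11.2) overlapped that of regular medium (9.16 to 10.7), and naïve CM (7.53 to 9.13) lay below both. These are descriptions, without a test.

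**Figure D5:**
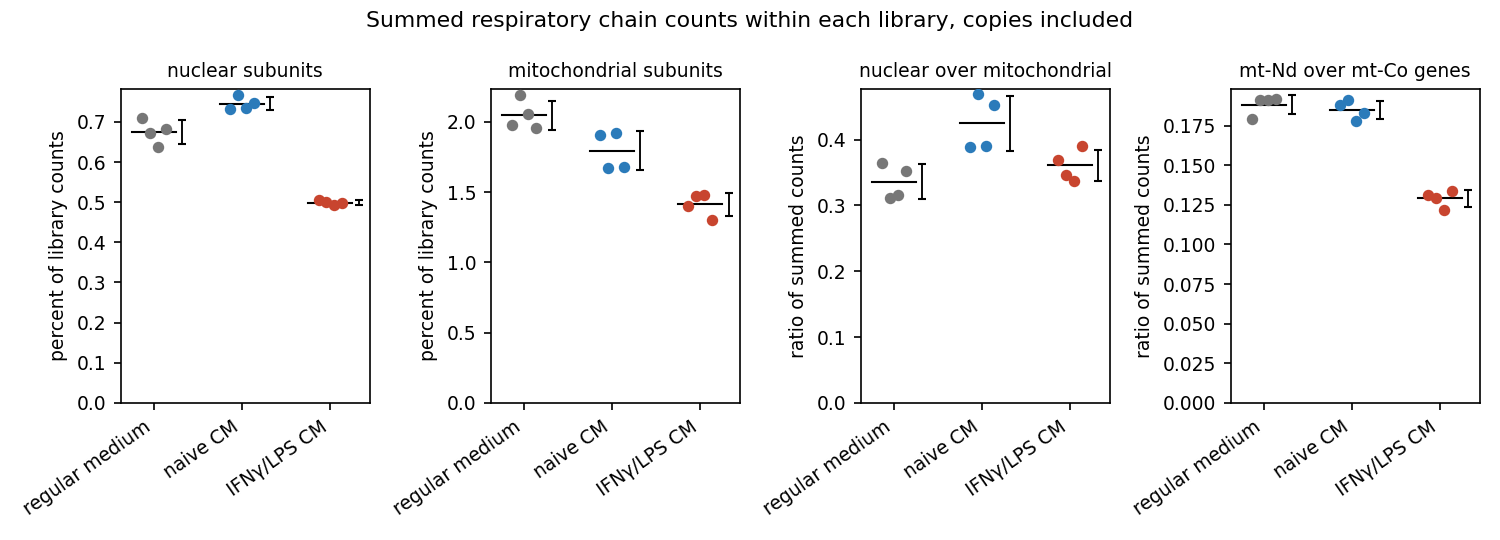
Summed counts within each library: share of nuclear member rows and of mitochondrial members in all counts, the ratio of nuclear to mitochondrial counts, and the ratio of mt-Nd to mt-Co counts. Copies are included except in the nuclear share. Each axis starts from 0, with 1 point per library, the group mean as a line and 1 SD as the bar. IFNγ/LPS CM libraries lie lowest in the mt-Nd to mt-Co ratio (0.122 to 0.134) and in both shares, which are scaled by library totals; after TMM scaling their nuclear share (0.590 to 0.608%) overlaps regular medium (0.590 to 0.644%) and their mitochondrial share overlaps naïve CM.

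Naïve CM against regular medium moved the nuclear chain the other way. Of the 80 nuclear members 37 rose and 2 fell, against 18.3% of all genes called higher and 16.4% lower, and the median was 0.14 against -0.0169 for all genes. Both this comparison and the previous one use the naïve CM libraries, so their opposite signs are not independent. Complex V had 10 of 17 members higher, complex I 15 of 36, complex IV 7 of 15, complex II 3 of 4 and complex III 2 of 8. Within complex I, 10 of 16 peripheral and 5 of 20 membrane arm members rose. Of all 93 members 43 were called, against 34.7% of all genes, and 1 of them by at least 2-fold, where 3.82% of all genes did. This 1 was Ndufa4l2, with 35 counts against 4, which is a member only through its 722 counts in IFNγ/LPS CM. Libraries did not overlap for 27 members in the higher direction and 2 in the lower, against 17.2% and 15.5% of all genes.

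Atp5b averaged 603 ± 26.6 CPM in regular medium and 746 ± 13.3 CPM in naïve CM, a rise of 0.31 ± 0.04 (adjusted p 7.07e-06). Atp5a1 rose by 0.19 and Atp5c1 by 0.26, Atp5g2 with its copy by 0.32 ± 0.0495 (adjusted p 6e-05), and Ndufa4 by 0.34 ± 0.051 (adjusted p 4.43e-05). Cox7a2 went from 75.1, 64.4, 61.6 and 59.8 CPM to 87.8, 91.0, 79.7 and 84.3 CPM, a rise of 0.39 ± 0.068 (adjusted p 0.000301). In complex I, Ndufa11 rose most, by 0.35 ± 0.061 (adjusted p 0.000217), in complex II Sdhb by 0.25 ± 0.048, and in complex III Uqcr10 by 0.27 ± 0.092 (adjusted p 0.0323), a call lost without any one of naïve CM replicates 2, 3 and 4 or regular medium replicates 1, 2 and 3 (adjusted p 0.0634 to 0.0891), with no filter (0.0568) or with only the groups compared (0.0791). The 2 nuclear members that fell were Cox7a2l and Cox6b2. Cox7a2l was at 276, 270, 264 and 263 CPM in regular medium and averaged 208 ± 4.95 CPM in naïve CM, with the groups apart (-0.37 ± 0.034, adjusted p 1.3e-07). Cox6b2 fell from 2.27, 2.10, 2.31 and 2.50 CPM in regular medium, a ratio of 0.685 (0.591 to 0.792). Cox4i2 was at -0.64 ± 0.287 without a call (adjusted p 0.0927), or -0.79 with one when regular medium replicate 4 was left out (adjusted p 0.0453). Ndufa4l2 was at the edge of detection, with 35 counts against 4, a ratio of 8.96 (3.2 to 34.7).

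Of the 13 mitochondrial rows 1 rose (7.69%), 3 fell (23.1%) and 9 had no call. Over all genes 18.3% were called higher and 16.4% lower in naïve CM against regular medium. The median of the mitochondrial rows was -0.17, but -0.05 without regular medium replicate 2 and -0.10 without naïve CM replicate 3. mt-Nd4 was at 273, 396, 431 and 407 CPM in regular medium and 254, 236, 281 and 201 CPM in naïve CM, with regular medium replicate 1 inside the range of the other group (-0.63 ± 0.149, adjusted p 0.00838). mt-Nd2 was at -0.34 ± 0.101 (adjusted p 0.0229) and mt-Co1 with its copy at -0.25 ± 0.075 (adjusted p 0.0164). The mt-Nd2 call was lost without any one of naïve CM replicates 2, 3 and 4 or regular medium replicates 2 and 3 (adjusted p 0.0501 to 0.0637) and with no filter (0.0628). The mt-Co1 row alone, at -0.21 (adjusted p 0.0384), lost its call without any one of 7 libraries, naïve CM replicates 2 and 4, IFNγ/LPS CM replicates 1 and 2 and regular medium replicates 1, 2 and 3 (adjusted p 0.0506 to 0.115), and with only the groups compared (0.0694). mt-Nd6 rose by 0.39 ± 0.111 (adjusted p 0.0112), and by 0.27 without naïve CM replicate 1 (adjusted p 0.0515), which was the highest of its group. Counts of the mitochondrial members with copies were 2.05 ± 0.105% of the library in regular medium and 1.80 ± 0.139% in naïve CM.

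IFNγ/LPS CM against regular medium shares its libraries with both comparisons above. Nuclear members divided, with 15 higher, 28 lower and 37 without a call (35.4% of all genes were called higher and 36.4% lower), and a median of -0.06 against -0.0262 for all genes. Over all 93 members 15 were called higher and 35 lower, and 4 and 80 with library totals. Of these members 10 lay without overlap in the higher direction and 28 in the lower, against 32.5% and 32.7% of all genes. Complex I had 5 members higher and 14 lower, complex II 3 and 1, complex III 0 and 3, complex IV 6 and 5, and complex V 1 and 5. Ndufv3 was higher by 0.92 ± 0.048, Sdhd by 0.51 ± 0.042 and Cox7a2 by 0.47 ± 0.068 (0.08 without a call by library totals), and Cox7a2l was at -0.61 ± 0.034 (adjusted p 4.77e-12). Ndufa4 fell by 0.67 ± 0.052 (adjusted p 8.59e-10). Cox4i2 had a ratio of 10.7 (8.14 to 14.4) and Cox6b2 of 0.246 (0.191 to 0.312), and Ndufa4l2 had 722 counts against 4. The largest nuclear falls of the other complexes were Ndufb4c in complex I, at -0.69 ± 0.071, Sdha in complex II, at -0.24 ± 0.041, Uqcrh, the hinge protein of complex III, at -0.25 ± 0.058, and Atp5g3 in complex V, at -0.34 ± 0.079 (adjusted p 4.6e-08, 3.17e-05, 0.000994 and 0.00113). Atp5b was at 0.08 and Atp5a1 at -0.05, both without a call, and Atp5b passed the test without regular medium replicate 1 (0.11, adjusted p 0.0188). Atp5c1 was the 1 complex V member called higher, at 0.11 ± 0.042 (adjusted p 0.0258), with overlapping groups. It lost the call with no filter, with only the groups compared, and without IFNγ/LPS CM replicate 1 or regular medium replicate 3 or 4 (adjusted p 0.0548 to 0.106), and read -0.28 with library totals. Of the 50 called members, against 71.8% of all genes called, 3 changed by at least 2-fold, where 28.1% of all genes did. These 3 were Ndufa4l2, Cox4i2 and Cox6b2, the first 2 of them members only through their counts in IFNγ/LPS CM.

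The mitochondrial genes were lower than in regular medium: 7 of 13 rows fell (53.8%), none rose, and the median was -0.47. Over all genes 36.4% were called lower and 35.4% higher. mt-Nd2 fell by 0.88, mt-Nd6 by 0.75, mt-Nd1 by 0.62, mt-Nd4 by 0.60, mt-Nd5 by 0.57 and mt-Cytb by 0.47 on the log2 scale. mt-Atp8 fell by 0.31 (adjusted p 0.0403), a call lost without any one of naïve CM replicate 3, IFNγ/LPS CM replicates 1, 3 and 4 and regular medium replicates 1, 2 and 4 (adjusted p 0.0531 to 0.0991), with the replicate number as a block (0.0557) and with no filter (0.0656). With copies added, mt-Nd4l was at -0.67 ± 0.123, mt-Nd3 at -0.42 ± 0.0608 and mt-Atp6 at -0.35 ± 0.0673, all called, while mt-Co3 was at -0.11 (adjusted p 0.0544), mt-Co2 at 0.02 (adjusted p 0.765) and mt-Co1 at -0.03 (adjusted p 0.768). The rows of mt-Nd4l, mt-Nd3 and mt-Atp6 alone were at -0.34, -0.15 and -0.54 without a call (adjusted p 0.489, 0.36 and 0.0612). With copies added, all 7 complex I genes were called lower and none of the 3 complex IV genes was called, while with library totals the mt-Co1 row was called lower too (-0.40, adjusted p 6.85e-05).

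Other genes of the pathway, from 10 lists, are given for IFNγ/LPS CM against naïve CM, where 36.1% of all genes were called higher and 35.8% lower. Complex I assembly factors (15 tested) had 3 higher and 8 lower, with Foxred1 at 1.18 and Ndufaf2 at -0.67. Complex II assembly factors (4) had 1 higher and 3 lower, with Sdhaf2 at 0.25 and Sdhaf3 at -0.74. The list of complex III assembly, cytochrome c1 and the carrier cytochrome c (8) had 3 higher and 2 lower. Cytochrome c1, Cyc1, a complex III subunit whose symbol the membership rule does not match, was 1 of the 2 lower, at -0.39 ± 0.063. Cytochrome c itself, Cycs, went from 46.5 ± 2.74 to 93.3 ± 3.11 CPM, a rise of 1.00 ± 0.055 (adjusted p 3.02e-12), and Bcs1l, which inserts the Rieske protein, fell by 0.59. Complex IV assembly factors (23 of 24 tested) had 9 higher and 4 lower, with Higd1a, a hypoxia-induced protein that binds the enzyme, going from 43.0 ± 2.53 to 298 ± 17.6 CPM and Cmc2 falling by 1.51. Complex V assembly and inhibitor genes (6) had 1 higher and 3 lower. Atpif1, which blocks ATP hydrolysis by complex V, fell from 74.5 ± 1.64 to 23.6 ± 1.38 CPM, by 1.66 on the log2 scale (adjusted p 1.35e-16).

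Genes that express the mitochondrial genome (29 of 30 tested) had 10 higher and 9 lower, with a median of 0.06. Pnpt1, an RNA exonuclease in mitochondria that interferon induces, went from 23.8 ± 0.181 to 115 ± 1.87 CPM (2.28 ± 0.051), and Tfb2m, a transcription factor for the mitochondrial promoters, from 31.6 ± 1.62 to 14.4 ± 0.559 CPM (-1.14 ± 0.06). The RNA polymerase Polrmt fell by 0.64, and Tfam, which packages mitochondrial DNA, was at 0.17 ± 0.047 with a call. Mitochondrial ribosomal proteins (78) had 21 higher (26.9%) and 23 lower (29.5%), both below the share of all genes, led by Mrpl27 at 0.91 and Mrps6 at -1.39. Biogenesis regulators (10 of 12) had 4 higher and 1 lower, with Myc at 1.42 and Ppargc1a, at 1.23 ± 0.159 CPM in naïve CM, at -0.88. Ubiquinone synthesis (13) had 6 higher and 4 lower, with Coq8b at 1.08 and Coq8a at -1.63. Genes of subunit exchange and turnover (15 of 17), which include Nmes1, had 8 higher and 4 lower, with Bnip3, a receptor for removal of mitochondria, going from 41.9 ± 0.564 to 775 ± 24.4 CPM and Pdk1, a kinase that limits pyruvate oxidation, from 51.9 ± 1.58 to 413 ± 5.54 CPM. Hif1a rose by 2.25 and the mitochondrial protease Lonp1 by 1.33, and Pink1 fell by 0.78. Library totals move these splits, to 5 higher and 62 lower for the ribosomal proteins, 5 and 15 for complex IV assembly, and 4 and 17 for expression of the mitochondrial genome.

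In naïve CM against regular medium, where 18.3% of all genes were called higher and 16.4% lower, mitochondrial ribosomal proteins had 23 higher and 1 lower of 78 (29.5% and 1.28%), ubiquinone synthesis 5 and 0 of 13, subunit exchange and turnover 7 and 0 of 15, and expression of the mitochondrial genome 1 and 3 of 29. In IFNγ/LPS CM against regular medium these lists had 27 and 15, 7 and 2, 9 and 2, and 10 and 10, against 35.4% and 36.4% of all genes. Slc25a5, the ADP/ATP carrier that feeds complex V, was at 118 ± 4.95 CPM in regular medium, 183 ± 5.73 in naïve CM and 142 ± 2.43 in IFNγ/LPS CM, a log2 fold change of 0.63 ± 0.039 in naïve CM against regular medium and -0.37 ± 0.039 in IFNγ/LPS CM against naïve CM.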

How the data were processed

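Messenger RNA was made into 12 stranded poly(A) libraries, per the labels' protocols, and quantified with Salmon 1.10.1 against mm10, per the submitters' processing notes. The authors deposited expected counts per gene, estimated by Salmon and given as whole numbers. The annotation release, the summing of transcripts and any use of strand were not given in the sources used here. Columns were matched to titles by name, where M0 was taken for naïve and M1 for IFNγ/LPS macrophage medium after common usage, which the labels do not spell out. Symbols and coordinates came from GENCODE M21 on GRCm38, which matched 51344 of 55822 identifiers (91.98%), and promoters from RefSeq on GRCm38.p6.

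In R 4.3.3, edgeR 4.0.16 was used with filterByExpr (16140 genes kept), TMM scaling and the robust quasi-likelihood F-test (two-sided) in 1 model of 12 libraries with 9 residual degrees of freedom, Benjamini-Hochberg adjusted over all genes at 0.05. It was run on simulated counts in which few genes changed, as many up as down, so the shift between scalings seen here was not covered. The SE of a fold change is approximate, and ratios of summed counts carry exact 95% intervals for counting error only. Genes outside the members sharing at least 50% of the 31-base words of a transcript with a member were taken as copies. Members, lists and tests were chosen with earlier results of these data known, and adding copies was chosen after seeing the data. Genes were named by rule: all mitochondrial members, members with paralogs, core catalytic subunits, and the largest rise and fall of each complex in each comparison (1 core subunit is not reported here), and from each other list the largest rise and fall and up to 2 of known role. Ndufb10, Ndufb4, Ndufb2, Ndufs4, Ndufc2, Atp5o, Uqcrq and Ndufb1-ps were named after their values were seen. Alternatives were DESeq2 1.42.0 size factors and Wald test, library totals, scaling without mitochondrial genes, no filter or at least 1 CPM in 4 libraries, limma-voom (limma 3.58.1), a fit of only 2 groups, a block for the replicate number, and each library left out in turn.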

Additional observations from a re-analysis of the deposited data

Results flagged for a closer look

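The search for a library far from the others of its medium covered the 58 members named above and 5 shares or ratios, 189 groups of 4 libraries in all, and found 8, or 4.23%, where the gap to the nearest library, over the range of the group, exceeded Dixon's 95% critical value; chance gives about 1 in 20. In regular medium, replicate 4 was high for Ndufc2 at 27.4 CPM (others 20.1 to 21.0) for Uqcrq at 28.5 CPM (11.3 to 13.2) and for the Atp5g2 row at 2.05 CPM (1.58 to 1.65), replicate 1 for Atp5b at 643 CPM (584 to 594), and replicate 2 for the share of mitochondrial members, copies not added, at 1.42% of counts (1.22 to 1.25). With its copy added, Atp5g2 was lowest in regular medium replicate 4, at 98.3 CPM (others 100 to 108). In naïve CM, replicate 2 was high for Cox4i1 at 274 CPM (250 to 254) and for Uqcrc2 at 89.0 CPM (80.2 to 81.6). In IFNγ/LPS CM, replicate 4 was high for Ndufs8 at 33.1 CPM (30.3 to 30.5).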

How the results depend on the processing

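Scaling by library totals moved the members called in IFNγ/LPS CM against naïve CM to 3 higher and 83 lower and those against regular medium to 4 and 80, with nuclear and mitochondrial medians of -0.59 and -0.67, and of -0.45 and -0.85. It reversed mt-Nd4 (-0.36), mt-Co1 (-0.18), mt-Co2 (-0.01), mt-Co3 (-0.16), Cox7a2 (-0.31), Cox7b (-0.31), Ndufs3 (-0.01), Ndufs4 (-0.22), Ndufc2 (-0.13) and Sdhd (-0.07) in the former comparison and Atp5b (-0.31) and Atp5c1 (-0.28) in the latter. The lower factors of the IFNγ/LPS CM libraries set this shift. Leaving out single libraries gave 3 to 7 members called lower in naïve CM against regular medium, where all libraries gave 5 and 3 were called without naïve CM replicate 2 or 4 or regular medium replicate 2 or 3. It reversed mt-Nd4 in IFNγ/LPS CM against naïve CM (-0.05 without naïve CM replicate 4, -0.01 without IFNγ/LPS CM replicate 3) and mt-Co1 against regular medium (0.03 without IFNγ/LPS CM replicate 4, 0.02 without regular medium replicate 2). Adding copies, chosen after seeing the data, gave 8 higher and 54 lower in IFNγ/LPS CM against naïve CM, and changed the call of 7 gene results, as given above for mt-Nd3, mt-Nd4l and mt-Atp6 in both comparisons of IFNγ/LPS CM and, at an adjusted p of 0.05, Sdhc; it reversed mt-Co3 in IFNγ/LPS CM against regular medium (0.43 to -0.11, neither called). Every other alternative on all libraries kept the direction of the gene results and changed the call of at most 5 of them. Deviations from the group mean, over all tested genes, correlated at -0.0637 to 0.0679 between libraries of the same replicate number (12 pairs), none over 0.1. A correlation over all genes cannot show whether the numbers stand for shared animals or batches that affect fewer genes. With the number as a block, 8 members were called higher and 53 lower in IFNγ/LPS CM against naïve CM, 40 and 7 in naïve CM against regular medium and 16 and 38 in IFNγ/LPS CM against regular medium; 5 gene results changed their call, the rows of mt-Nd3 and mt-Atp6, which passed the test in both comparisons of IFNγ/LPS CM (adjusted p 0.000767 to 0.0425), and mt-Atp8, as given above. Restricted to the groups compared, 1 gene result, Ndufa4l2 in naïve CM against regular medium, did not pass the filter. Depth limits Ndufa4l2, Cox4i2 and Cox6b2, which had 761, 517 and 855 counts over all libraries.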
